A study of Mus musculus with 2 samples.

Results

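Effector and exhaustion transcription factors of lymphocytes were followed as a set of 10 genes, Tox, Tbx21, Eomes, Prdm1, Id2, Nr4a2, Bhlhe40, Irf4, Batf and Nfatc1. They were chosen by name, with earlier results of these data known, and make up 10 of the 27188 gene symbols listed for the series. Each was read as raw UMIs (unique molecular identifiers, which mark single captured RNA molecules) in 4 classes of cells: CD8 T cells, CD4 T cells, Foxp3-positive T cells and natural killer (NK)-like cells. All 10 had UMIs in both libraries.

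The cells came from MC38 tumours, grown from a mouse colon carcinoma line implanted under the skin of C57BL/6 mice labelled as wild type. In the PBM group, photobiomodulation (a treatment with light) was begun on day 7 and given daily. The Control group is labelled as Control only, and whether it was handled without light is not given in the sources used here; tumours of both groups were taken on day 14. Immune cells were sorted by CD45, a surface protein of leukocytes, although the labels name the cell type as tumour cells, and cells were pooled within a group into 1 library each.

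Several of these factors work in sequence in an activated lymphocyte. Signals from the antigen receptor drive NFATc1, NR4A2, IRF4 and BATF, of which BATF binds DNA together with JUN proteins and IRF4; the T-box factors T-bet (Tbx21) and EOMES, with ID2, BLIMP-1 (Prdm1) and BHLHE40, then shape killing, cytokine output and residence in tissue. Under lasting stimulation, as in chronic infection and tumours, TOX and the NR4A factors are known for the dysfunctional state called exhaustion, while TCF-1 (Tcf7), LEF1 and ID3 mark naive and stem-like cells.

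The PBM library held 13962 barcodes with 86159897 UMIs, of which 13062 cells were kept, and the Control library held 11238 barcodes with 104673228 UMIs, of which 11099 were kept. The files share 1991 barcode names, but names are serial cell numbers, so a shared name does not mark a shared cell. CD8 T cells numbered 3383 in PBM and 1106 in Control, CD4 T cells 948 and 85, Foxp3-positive T cells 501 and 499, and NK-like cells 203 and 1324. Levels are UMIs of a gene per 1000000 UMIs of the class in that library (CPM), and ranges in brackets are exact 95% intervals that cover counting error only. Because each group is a single library, replicate spread is unknown and nothing was tested; what the light did cannot be told apart from differences between the pools or between the libraries.

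The T cell and NK markers below are those by which the clusters were named. Their levels describe the classes and are not a separate check of the labels. All 12 T cell markers and all 12 NK markers had UMIs in both CD8 T and NK-like cells of each library, so detection alone does not set classes apart. Summed T cell markers stood at 7212 CPM in PBM and 8602 CPM in Control CD8 T cells, and at 2023 and 1663 CPM in NK-like cells. Summed NK markers stood at 14627 and 8719 CPM in NK-like cells, and at 125 and 1215 CPM in CD8 T cells. Ncr1, a receptor of NK cells, stood at 518 CPM in PBM and 376 CPM in Control NK-like cells. Cd8b1 stood there at 120 and 12.3 CPM. The libraries filled the CD8 T class from different clusters. In PBM, 84.2% of CD8 T cells lay in a cluster led by Cd8b1 and Dapl1, and in Control 94.3% lay in a cluster led by Ifng, Ccl4 and Pdcd1. Of CD4 T cells, 87.6% of the PBM cells lay in a cluster led by Cd40lg, against 34.1% of the Control cells, of which a further 43.5% lay in the cluster led by Foxp3, Tnfrsf4 and Klrg1. That Foxp3-led cluster held 17.4% of the PBM Foxp3-positive T cells and 92.8% of the Control ones, while 54.7% of the PBM ones lay in a cluster led by Izumo1r. One NK cluster led by Klra8, Klrb1c and Gzma held 99.0% of the PBM and 89.8% of the Control NK-like cells. RNA of other cell types moved with the libraries. In CD8 T cells the 11 B cell markers, all detected, summed to 1263 CPM in PBM and 80.6 CPM in Control, the 12 monocyte and macrophage markers, all detected, to 38.2 and 1423 CPM, and the 7 fibroblast markers to 0.405 CPM in PBM, with Col1a2, Col3a1 and Lum at 0, and to 47.7 CPM in Control, with Lum at 0. Their part in the results was not tested.

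In CD8 T cells most of the set was lower in the PBM library: 8 of the 10 genes were lower and 6 of them at least 2-fold lower, namely Bhlhe40, Nr4a2, Prdm1, Id2, Irf4 and Tbx21. Across all 12639 genes measured in the class (at least 20 UMIs over both libraries), 18.1% were at least 2-fold lower and 8.46% at least 2-fold higher in PBM. Eomes was the 1 member past 2-fold in the higher direction, and Tox stood at nearly the same level in both libraries. The median log2 ratio, PBM over Control, was -2.71 over the 10 members and -0.20 over all genes. CD4 T cells had 5 of 9 measured members at least 2-fold lower and 0 higher, where 14.4% of 9116 genes were lower and 9.34% higher by that much, and the members' median was -1.41 against -0.14 for all genes. Nr4a2, with 18 UMIs, was the member below the minimum there.

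Foxp3-positive T cells had 5 of 10 members at least 2-fold lower and 1 higher, against 12.6% and 5.32% of 10467 genes, with medians of -1.44 for the members and -0.13 for all genes. NK-like cells went the other way. Of 9 measured members 0 were at least 2-fold lower and 2 at least 2-fold higher, against 9.76% and 7.42% of 10908 genes, and the members' median was 0.51, with 0.08 for all genes. The 2 higher members were Tox and Nr4a2, and neither stayed past 2-fold under all alternatives. Tox was at -0.15 in cells without Cd3 UMIs, and Nr4a2 was at 0.35 in cells thinned to 1000 UMIs. The member below the minimum in NK-like cells was Irf4, with 17 UMIs. A scaling by edgeR's trimmed mean of M values (TMM) would add 0.22, 0.16, 0.14 and -0.11 to every log2 ratio in CD8 T, CD4 T, Foxp3-positive T and NK-like cells.

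**Figure D1:**
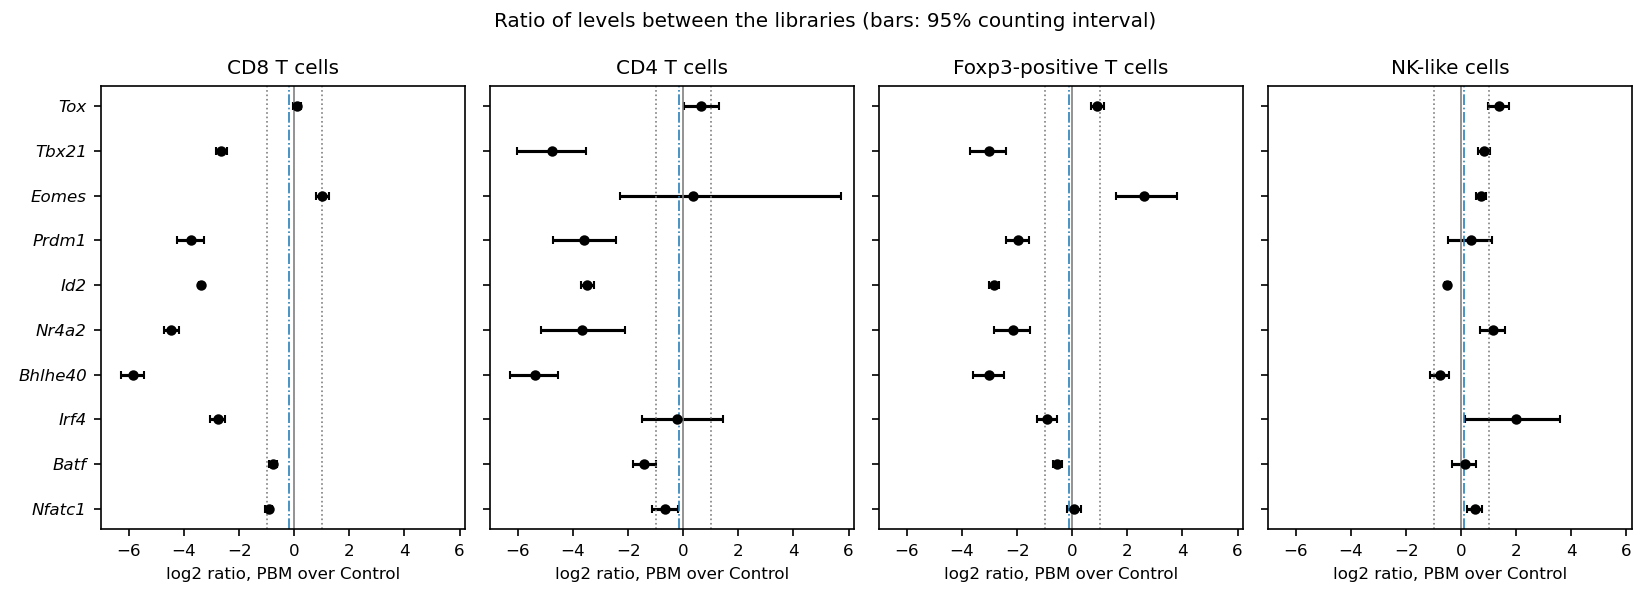
Log2 ratio of each member, PBM over Control (horizontal axis), in the 4 cell classes, with exact 95% counting intervals; the dash-dot line marks the median over all genes of the class and the dotted lines a 2-fold difference. Bhlhe40, at -5.86 in CD8 T cells, lies farthest to the left, and in NK-like cells Tox, Nr4a2, Tbx21 and Eomes lie to the right of 0.

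The 2 T-box factors parted in CD8 T cells. Tbx21 encodes T-bet, which drives the interferon-gamma and killing program, and Eomes encodes its close relative, known in memory, exhausted and NK cells. Tbx21 had 348 UMIs in PBM and 701 in Control, which gave 14.1 CPM in PBM and 88.2 CPM in Control, a log2 ratio of -2.65 (-2.84 to -2.46). Eomes had 1072 UMIs in PBM and 172 in Control, or 43.4 and 21.6 CPM, a log2 ratio of 1.00 (0.77 to 1.25). Eomes lies just past the 2-fold line, and Nfatc1, at -0.92, falls just short of it in the lower direction. Without the Ifng-led cluster, which leaves 63 Control cells, the Eomes ratio was 0.19, and under 5 other alternatives it lay between 0.49 and 0.98, so its place past 2-fold did not hold under these.

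The promoters of this pair are shown because their transcripts differed in direction in the same cells. They are the 250 bases before the start listed by RefSeq on GRCm38.p6, printed along the gene's strand, with capitals for matches to the motifs searched.
Tbx21, chr11:97115332-97115581, minus strand: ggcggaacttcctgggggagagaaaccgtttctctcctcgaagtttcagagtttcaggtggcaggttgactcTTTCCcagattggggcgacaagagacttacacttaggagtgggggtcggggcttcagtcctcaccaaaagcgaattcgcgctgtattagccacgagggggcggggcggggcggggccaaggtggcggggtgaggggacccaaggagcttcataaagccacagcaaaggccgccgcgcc
Eomes, chr9:118477939-118478188, plus strand: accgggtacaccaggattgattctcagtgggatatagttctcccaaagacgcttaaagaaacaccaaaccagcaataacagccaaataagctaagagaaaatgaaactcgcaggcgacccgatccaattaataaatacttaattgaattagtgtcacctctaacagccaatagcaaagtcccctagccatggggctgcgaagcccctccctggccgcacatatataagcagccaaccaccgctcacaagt
The motifs were searched on both strands: TGANTCA for AP-1, the complex of JUN, FOS and BATF proteins, TGACGTCA for cyclic AMP response factors, GGAAA as the core that NFAT binds, the E-box CACGTG that BHLHE40 binds, and AAAGGTCA for NR4A proteins. The Tbx21 window held 1 NFAT core, read here as TTTCC, and the Eomes window none of the 5. An NFAT core occurs in 55.6% of 32851 promoter windows of that length, so such a match is common, and a match is a description and not a site.

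In the other T classes Tbx21 was again lower. Among Foxp3-positive T cells it stood at 6.23 CPM in PBM and 50.8 CPM in Control (log2 ratio -3.03, -3.70 to -2.41), and among CD4 T cells at 1.87 and 50.2 CPM (-4.74, -6.03 to -3.54). The CD4 value in PBM rests on 10 UMIs, and RNA released from other cells at the level estimated for the class could supply 105% of it. Eomes in Foxp3-positive T cells had 70 UMIs in PBM and 9 in Control, 17.4 and 2.86 CPM (log2 ratio 2.61, 1.60 to 3.80). The Foxp3 gate asks for a single UMI, and cells in it also carried Cd8b1 at 265 CPM in PBM and 142 CPM in Control; 13.4% of the PBM cells lay in the Dapl1-led CD8 cluster, and the part of these cells in the Eomes value was not tested. When each cell was thinned to 1000 UMIs the ratio was 0.69, but the Foxp3 gate was then applied again. That left 176 PBM and 284 Control cells with few UMIs of Eomes, so this value says little about the gene. In CD4 T cells Eomes was at 3.75 CPM in PBM and 2.95 CPM in Control, where free RNA could supply at least 91.6% in each library, so nothing above background was detectable.

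NK-like cells held the highest level of both T-box genes in each library, with intervals apart from the next class. Tbx21 stood at 209 CPM in PBM and 118 CPM in Control (log2 ratio 0.82, 0.60 to 1.03). Eomes stood at 279 CPM in PBM and 169 CPM in Control (0.72, 0.53 to 0.90). Within the shared NK cluster alone the ratios were 0.71 and 0.65, both above the median of 0.06 over all genes of that cluster.

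**Figure D2:**
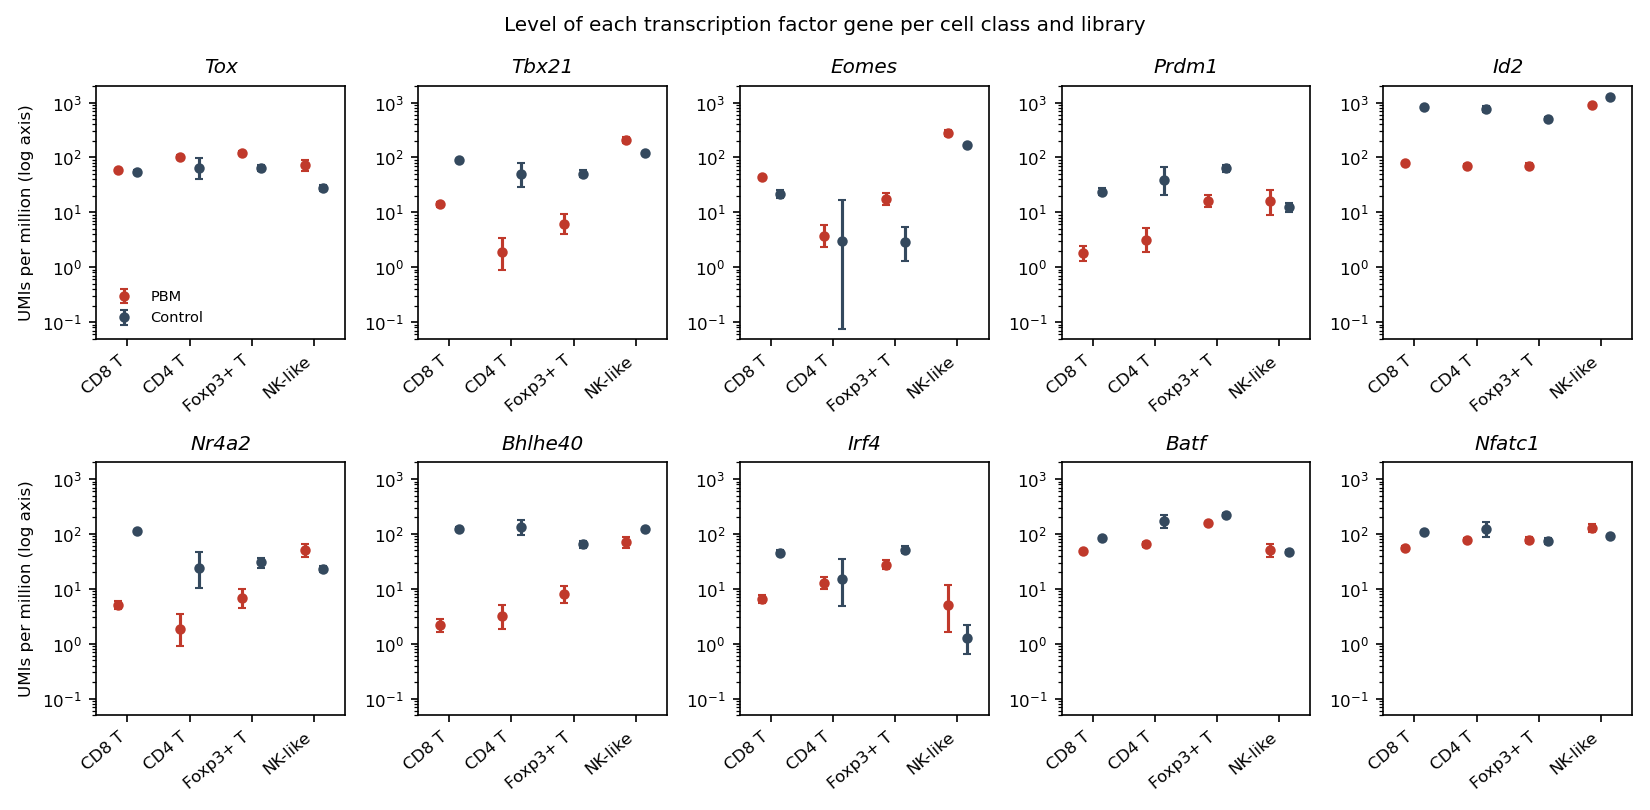
Level of each member in CPM (log axis) in the 4 cell classes of the PBM and Control libraries, with exact 95% Poisson intervals that cover counting error only. Id2 in CD8 T cells stands at 78.3 CPM in PBM and 812 CPM in Control, while Tox stands at 57.8 and 54.1 CPM.

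Id2, Prdm1 and Bhlhe40 were lower in PBM in all 3 T classes. Id2 encodes an inhibitor that binds E proteins and keeps them from DNA, and is needed by effector CD8 T and NK cells. In CD8 T cells it had 1933 UMIs in PBM and 6457 in Control, 78.3 and 812 CPM, so it was 10.4-fold lower in PBM (log2 ratio -3.38, -3.45 to -3.30). In CD4 T cells it stood at 69.9 CPM in PBM and 777 CPM in Control (-3.48, -3.71 to -3.24), and in Foxp3-positive T cells at 71.0 and 511 CPM (-2.85, -3.03 to -2.66). The 3 PBM T classes thus lay within a narrow band of Id2, with overlapping intervals between neighbours, whereas NK-like cells kept a high level in both libraries, 896 CPM in PBM and 1272 CPM in Control (-0.51, -0.60 to -0.41). After thinning every cell to 1000 UMIs, an Id2 UMI was found in 6.95% of PBM and 48.5% of Control CD8 T cells (6.11 to 7.86 and 45.5 to 51.5). The same share was 0.88% and 4.35% in B-like cells, and 15.5% and 26.3% in monocyte and macrophage-like cells, which express the gene. Without thinning, at median depths of 6357 and 5450 UMIs, the CD8 T shares were 27.2% and 82.1%, and those of B-like cells 3.98% and 14.5%.

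Bhlhe40 encodes a helix-loop-helix repressor that supports cytokine production and the fitness of T cells in tissues and tumours. It had the most extreme ratio of the set: 53 UMIs in 3383 PBM CD8 T cells and 991 UMIs in 1106 Control ones, 2.15 CPM in PBM and 125 CPM in Control, a 58.1-fold lower level (log2 ratio -5.86, -6.29 to -5.46). Of all genes measured in the class, 1.17% had a lower ratio. Free RNA could supply 66.1% of the PBM value, so little of it lies above that background. In CD4 T cells Bhlhe40 stood at 3.18 CPM in PBM and 133 CPM in Control (-5.38, -6.28 to -4.55), in Foxp3-positive T cells at 7.97 and 64.1 CPM (-3.01, -3.59 to -2.47), and in NK-like cells at 70.5 and 121 CPM (-0.78, -1.14 to -0.43). It was therefore lower in PBM in all 4 classes, and in NK-like cells by less than 2-fold, although UMI gates in place of clusters gave -1.51 there.

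Prdm1 encodes BLIMP-1, a repressor that promotes terminal effector differentiation and, in regulatory T cells, the effector state. In CD8 T cells it had 44 UMIs in PBM and 189 in Control, 1.78 and 23.8 CPM (log2 ratio -3.74, -4.25 to -3.26). In CD4 T cells it stood at 3.18 CPM in PBM and 38.4 CPM in Control, from 17 and 13 UMIs (-3.59, -4.72 to -2.43). Foxp3-positive T cells had the highest Prdm1 of the T classes in PBM, at 16.2 CPM against 63.5 CPM in Control (-1.97, -2.40 to -1.56), and NK-like cells stood at 15.9 CPM in PBM and 12.3 CPM in Control, an interval that spans 0 (0.37, -0.48 to 1.13).

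The promoters of Prdm1 and Nr4a2 are shown because Prdm1 was lower in the 3 T classes of PBM and Nr4a2 in its CD8 T cells, and each window holds 1 match to a motif of a factor in the set or of its partners.
Prdm1, chr10:44458749-44458998, minus strand: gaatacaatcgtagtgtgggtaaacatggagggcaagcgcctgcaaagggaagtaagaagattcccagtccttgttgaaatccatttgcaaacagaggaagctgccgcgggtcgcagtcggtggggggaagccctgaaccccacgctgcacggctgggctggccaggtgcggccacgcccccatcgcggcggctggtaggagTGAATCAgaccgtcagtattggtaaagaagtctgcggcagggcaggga
Nr4a2, chr2:57124004-57124253, minus strand: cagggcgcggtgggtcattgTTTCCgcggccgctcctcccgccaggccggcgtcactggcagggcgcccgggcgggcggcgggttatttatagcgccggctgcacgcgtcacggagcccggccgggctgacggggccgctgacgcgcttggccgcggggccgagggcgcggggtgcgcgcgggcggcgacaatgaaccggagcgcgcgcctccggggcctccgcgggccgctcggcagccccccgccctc
The Prdm1 window holds the AP-1 motif as TGAATCA, which 6.75% of the 32851 windows hold, and it was the only 1 of the 7 members searched to do so. The Nr4a2 window holds 1 NFAT core, and 3 of those 7 members hold at least 1: Tbx21 and Nr4a2 with 1 each and Batf with 2. No CACGTG, TGACGTCA or AAAGGTCA was in any of the 7 windows, and the Id2 and Irf4 windows held none of the 5 motifs.

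Among the factors driven by the antigen receptor, Nr4a2 and Irf4 were lower in PBM CD8 T cells by more than 2-fold, and Batf and Nfatc1 by less. Nr4a2 encodes an orphan nuclear receptor that is switched on early after receptor signals and, in mouse tumour models, is tied to exhaustion together with NR4A1 and NR4A3. It had 126 UMIs in PBM and 892 in Control, 5.10 and 112 CPM (log2 ratio -4.46, -4.74 to -4.19). Irf4, which encodes a factor whose amount tracks the strength of receptor signals, stood at 6.56 CPM in PBM and 45.2 CPM in Control (-2.78, -3.06 to -2.51), and free RNA could supply 74.6% of the PBM value. Batf stood at 49.0 CPM in PBM and 83.0 CPM in Control (-0.76, -0.90 to -0.62), and Nfatc1 at 56.1 and 106 CPM (-0.92, -1.05 to -0.80). The Ifng-led cluster, in which Nr4a2 is among the 10 leading genes, held 94.3% of the Control CD8 T cells. It therefore held most of the Control UMIs of these factors, as it did of Tox (420 of 430 UMIs). Without it, on 63 Control cells with 1 Nr4a2 UMI and 2 Irf4 UMIs, the CD8 T ratios were -0.03 for Nr4a2, -0.62 for Irf4, -0.24 for Nfatc1 and 0.03 for Batf. The ratios of Bhlhe40 (-2.34), Id2 (-2.28), Tbx21 (-2.39) and Prdm1 (-3.06) stayed past 2-fold in those cells, from 2 UMIs of Bhlhe40 and 3 of Prdm1 but 76 of Id2 and 15 of Tbx21 in Control.

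In Foxp3-positive T cells Nr4a2 stood at 6.72 CPM in PBM and 30.2 CPM in Control (-2.16, -2.84 to -1.54), from 27 and 95 UMIs. That difference did not hold under other choices of cells: the ratio was -0.13 without the Ifng-led cluster, -0.19 with at least 2 Foxp3 UMIs and -0.94 without the cells of the highest depth. It was -0.05 with cells thinned to 1000 UMIs, where the Foxp3 gate applied again left 176 PBM and 284 Control cells. These hold few Nr4a2 UMIs, so that value says little. Irf4 in the same class stood at 27.6 CPM in PBM and 51.7 CPM in Control (-0.90, -1.27 to -0.55). Batf, at 155 CPM in PBM and 226 CPM in Control (-0.54, -0.70 to -0.38), had its highest level of any class there in each library, although in Control its interval overlaps that of CD4 T cells. Nfatc1 was at 78.0 CPM in PBM and 74.9 CPM in Control, with an interval that spans 0 (0.06, -0.19 to 0.31).

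CD4 T cells gave fewer UMIs for this group in the Control library. Nr4a2 had 10 UMIs in PBM and 8 in Control, 1.87 and 23.6 CPM (-3.66, -5.15 to -2.11), and free RNA could supply 42.3% of the PBM value. The ratio was -1.20 without the Ifng-led cluster and -1.21 without cells of high depth. Batf stood at 64.4 CPM in PBM and 171 CPM in Control (-1.41, -1.82 to -0.98) and Nfatc1 at 77.7 and 124 CPM (-0.67, -1.13 to -0.18). Irf4, at 12.7 CPM in PBM and 14.8 CPM in Control, was not distinguishable at this depth (-0.21, -1.51 to 1.45), with 68 and 5 UMIs. Adding 2 clusters led by T cell markers that had stayed unnamed brought the CD4 T cells to 967 in PBM and 315 in Control. The ratios were then -5.03 for Bhlhe40, -4.71 for Tbx21, -3.59 for Id2, -2.57 for Prdm1 and -1.46 for Batf, so the 5 members past 2-fold stayed past it.

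In NK-like cells Nr4a2 was higher in PBM, with 51 UMIs in PBM and 220 in Control, 50.7 and 22.9 CPM (log2 ratio 1.15, 0.68 to 1.59). This is the opposite direction to that in CD8 T and Foxp3-positive T cells, whose intervals lie wholly below 0. The call is not firm: thinning to 1000 UMIs gave 0.35, UMI gates in place of clusters 0.77 and leaving out cells of high depth 0.69. Nfatc1 stood at 128 CPM in PBM and 90.3 CPM in Control (0.51, 0.23 to 0.77) and Batf at 50.7 and 46.5 CPM, with an interval that spans 0 (0.12, -0.33 to 0.54). Irf4 had 5 UMIs in PBM and 12 in Control, and free RNA could supply 95.9% and 89.1% of them.

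Tox encodes the nuclear factor that sets up and maintains the exhausted state in mouse CD8 T cells and also acts in T cell development in the thymus. In CD8 T cells it had 1427 UMIs in PBM and 430 in Control, 57.8 and 54.1 CPM, with an interval that spans 0 (log2 ratio 0.10, -0.06 to 0.25). After thinning to 1000 UMIs a Tox UMI was found in 5.91% of PBM and 5.79% of Control CD8 T cells (5.14 to 6.76 and 4.48 to 7.33). The same share was 0.66% and 0% in B-like cells, where 0 of 207 Control cells had one, which allows a share of up to 1.45%, so the T cell values lie above the background. In the other classes Tox was higher in PBM. It stood at 100 CPM in PBM and 65.0 CPM in Control CD4 T cells (0.63, 0.01 to 1.31), at 121 and 64.1 CPM in Foxp3-positive T cells (0.92, 0.68 to 1.16), and at 72.5 and 27.9 CPM in NK-like cells (1.38, 0.98 to 1.75). The Foxp3-positive ratio was 1.19 with at least 2 Foxp3 UMIs and 1.06 with TMM factors. It was -0.09 in thinned cells, where the Foxp3 gate applied again left 176 PBM and 284 Control cells. That value thus mixes depth with a change of cells, and it rests on far fewer UMIs.

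In the PBM library the Tox level of NK-like cells went with Cd3 UMIs, and in Control it did not. A Cd3 UMI (Cd3d, Cd3e or Cd3g) was present in 135 of 203 PBM and 420 of 1324 Control NK-like cells, 66.5% and 31.7%. Of the 73 Tox UMIs in PBM NK-like cells, 68 were in cells with a Cd3 UMI. Tox stood at 82.4 CPM in those PBM cells and at 27.5 CPM in the 68 PBM cells without one, against 25.01 CPM in Control cells with a Cd3 UMI and 30.6 CPM in the 904 Control cells without one. Among cells without a Cd3 UMI the Tox ratio was -0.15, with UMI gates in place of clusters it was 0.04, without cells of high depth 0.02, and in thinned cells 0.81. In the same Cd3-free cells the Bhlhe40 ratio was -1.66, farther from 0 than in all NK-like cells.

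Ratios were also taken within the clusters that both libraries filled. There were 5 clusters led by T or NK markers with at least 50 cells of each library, and Bhlhe40 was lower in PBM in all 5, with an interval wholly below 0 in each. It stood at 12.3 CPM in PBM and 56.4 CPM in Control in the Foxp3-led cluster (-2.19), at 4.61 and 52.9 CPM in a cluster led by Tcrg-C2 and Trdc, genes of the gamma-delta T cell receptor (-3.52), and at 34.3 and 180 CPM in one led by Cxcr6, Rora and Cd4 (-2.39). In the Cd40lg-led cluster the ratio was -2.97, from 45 UMIs in PBM and 6 in Control, and in the NK cluster it was -0.71. Id2 was lower in PBM in the same clusters, at 144 CPM in PBM and 524 CPM in Control in the Tcrg-C2-led one (-1.86). It stood at 154 and 426 CPM in the Foxp3-led one (-1.47). The ratio was -1.16 (-1.63 to -0.65) in the Cd40lg-led one and -0.52 (-0.62 to -0.42) in the NK one. The Cd40lg-led value rests on 38 Control UMIs, and free RNA was not estimated per cluster. In the Cxcr6-led one the ratio was -0.20 (-0.35 to -0.05), an interval that holds that cluster's median over all genes, -0.09.

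Other members did not keep 1 direction over these clusters. Tox in the Foxp3-led cluster stood at 199 CPM in PBM and 66.6 CPM in Control (1.58, 1.27 to 1.88), while in the Tcrg-C2-led and Cxcr6-led clusters its intervals span 0, with ratios of -0.01 and -0.17. Tbx21 was lower in PBM in the Foxp3-led cluster (-1.78, -2.81 to -0.89) and the Cxcr6-led one (-1.07, -1.95 to -0.29), and its interval spans 0 in the Tcrg-C2-led one (-0.18, -0.55 to 0.19). Prdm1 was lower in PBM in the Foxp3-led cluster by less than 2-fold (-0.93, -1.52 to -0.38). In the Cd40lg-led cluster it was at -3.26, from 7 Control UMIs, and in the Cxcr6-led one at -2.49, from 2 PBM UMIs. Its intervals span 0 in the Tcrg-C2-led cluster (0.20) and the NK one (0.28). Batf and Nfatc1 were higher in PBM in the Foxp3-led cluster, at 322 CPM in PBM and 242 CPM in Control for Batf (0.41, 0.20 to 0.62) and 132 and 75.4 CPM for Nfatc1 (0.81, 0.46 to 1.15). Both differ in sign there from their ratios in CD8 T cells, which were -0.76 and -0.92. The Foxp3-led cluster held 104 PBM and 569 Control cells, with median depths of 6203 and 3475 UMIs. Make-up can still differ inside such clusters: at Leiden resolution 2.0 the Foxp3-led cluster held 26 PBM and 568 Control cells, and a Klra1-led cluster, which shares leading genes with the Tcrg-C2-led one, held 11 PBM and 425 Control cells.

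**Figure D3:**
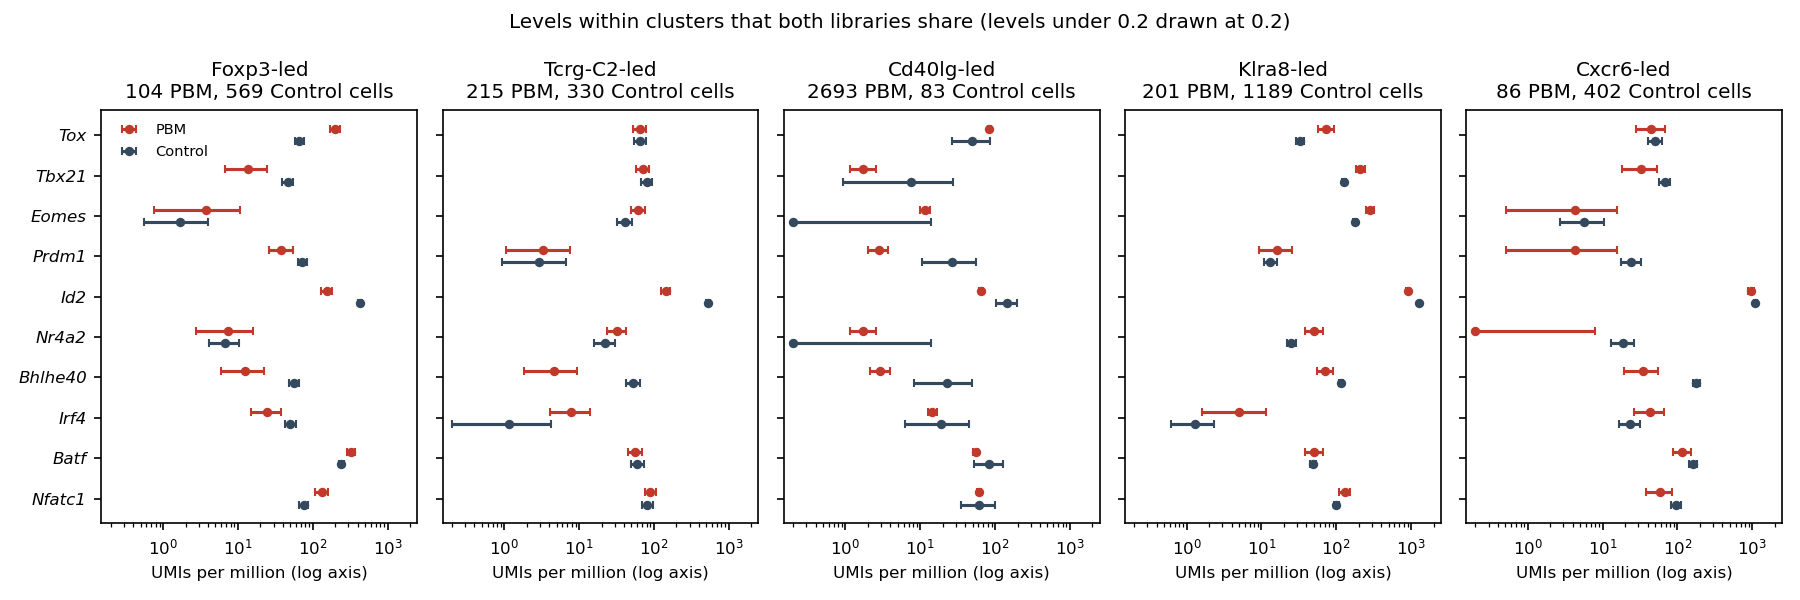
Member levels in CPM (log axis) in clusters that both libraries share, with PBM and Control points and exact 95% Poisson intervals. Bhlhe40 lies lower in PBM in each cluster shown, while Tox in the Foxp3-led cluster lies higher, at 199 CPM in PBM and 66.6 CPM in Control.

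Within each library the CD8 T cells were also split by a UMI of Pdcd1, which encodes the inhibitory receptor PD-1. Such a UMI was present in 40 of 3383 PBM cells and in 569 of 1106 Control cells. Among the PBM cells, Id2 stood at 312 CPM in cells with Pdcd1 and 74.7 CPM in cells without (log2 ratio, with over without, 2.06, 1.78 to 2.33), Nr4a2 at 42.6 and 4.52 CPM (3.24, 2.38 to 4.00) and Tbx21 had 15 UMIs in cells with Pdcd1 and 333 in cells without (1.55, 0.69 to 2.29). Batf (1.03), Nfatc1 (0.95) and Tox (0.79) were also higher in the PBM cells with Pdcd1, whereas Eomes stood at 24.0 CPM with it and 43.7 CPM without, from 9 UMIs in the cells that had it (-0.87, with an interval that spans 0).

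The split gave other values in Control. Id2, at 815 CPM in cells with Pdcd1 and 807 CPM in cells without (0.01, -0.06 to 0.09), and Tbx21 (-0.07, -0.30 to 0.15) have intervals that span 0. Prdm1 (0.94), Bhlhe40 (0.88) and Tox (0.82, 63.7 CPM with and 36.0 CPM without) were higher in the cells with Pdcd1, and Eomes was lower (-0.55, with an interval below 0). Nr4a2 was at 142 CPM with and 56.7 CPM without (1.32, 1.07 to 1.58), but with cells thinned to 1000 UMIs, which leaves a Pdcd1 UMI in 11 PBM and 191 Control cells, the Control ratio was -0.13.

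CD8 T cells were split in the same way by Tcf7, which encodes TCF-1. A Tcf7 UMI was present in 2972 of 3383 PBM and 241 of 1106 Control CD8 T cells. In Control, Prdm1 (-0.98), Bhlhe40 (-0.88), Id2 (-0.75) and Tox (-0.56) were lower in the cells with Tcf7, with intervals below 0. In PBM the cells with Tcf7 had less Id2, 73.7 CPM with and 131 CPM without (-0.84, -1.02 to -0.64). They also had less Nr4a2 (-0.84) and less Irf4 (-0.77), while Tox, Batf and Nfatc1 had intervals that span 0. With every cell thinned to the same depth, a Tcf7 UMI was left in 964 PBM and 72 Control cells. The PBM ratio of Id2 was then 0.02 (-0.40 to 0.43), so its difference did not hold. Nr4a2 and Irf4 in PBM then had too few UMIs to tell, 4 and 3 in the cells with Tcf7. Id2 stayed lower in Control (-0.78, -1.28 to -0.32). Bhlhe40 (0.12) and Tox (-0.21) had intervals there that span 0, and Prdm1 had 0 UMIs in the cells with Tcf7.

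**Figure D4:**
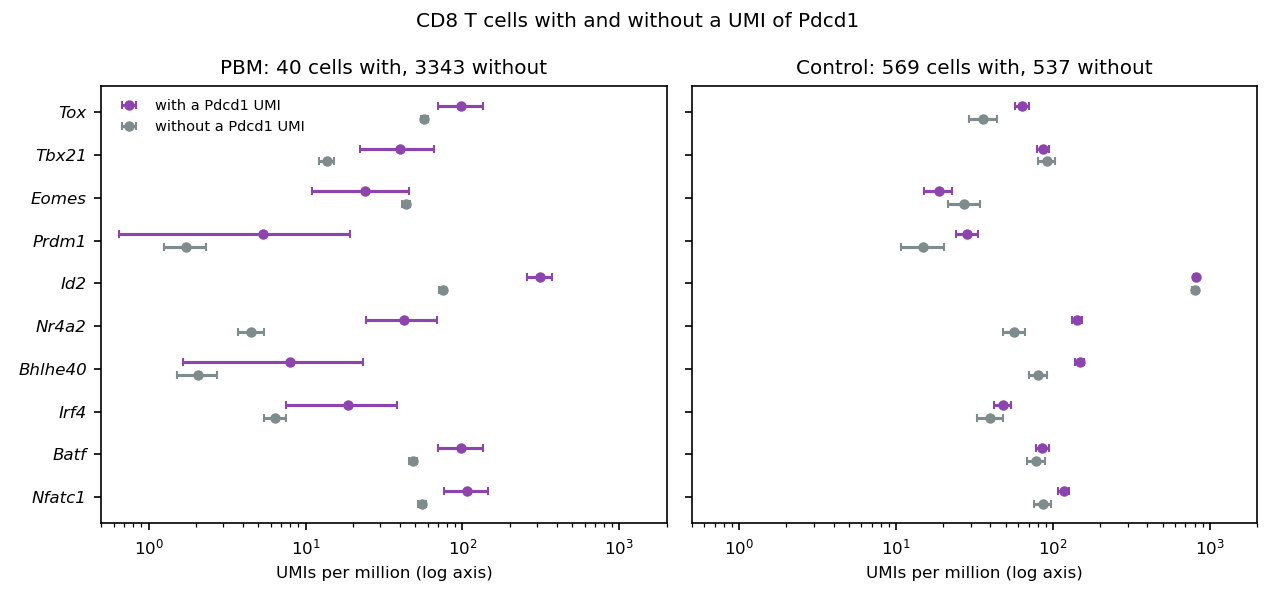
Member levels in CPM (log axis) in CD8 T cells with and without a Pdcd1 UMI, in the PBM library and in the Control library, with exact 95% Poisson intervals. In PBM, Id2 stands at 312 CPM with Pdcd1 and 74.7 CPM without, and in Control at 815 and 807 CPM.

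Cells with UMIs of several members at once were rarer in PBM among T cells. At 1000 UMIs per cell, 3.52% of PBM and 28.3% of Control CD8 T cells had UMIs of at least 2 of the 10 genes (2.92 to 4.19 and 25.7 to 31.1). For Foxp3-positive T cells the shares were 7.39% and 22.9%, and for CD4 T cells 3.69% and 9.41%. NK-like cells were at 43.8% in PBM and 35.3% in Control, with overlap at the edge of the intervals (36.9 to 51.0 and 32.7 to 37.9). B-like cells stood at 1.45% in PBM and 2.90% in Control. They carry some members themselves, Irf4 at 52.3 CPM in PBM and 70.2 CPM in Control and Nfatc1 at 78.9 and 104 CPM. Their share is therefore not a plain background for the set.

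Genes known to work with or against the set were read from lists. The 10 regulators of naive and stem-like T cells were all higher in PBM CD8 T cells, 7 of them at least 2-fold, with a median log2 ratio of 1.55; of all genes in the class 8.46% were higher and 18.1% lower by 2-fold. Id3, which like Id2 blocks E proteins but marks naive and memory cells, stood at 101 CPM in PBM and 7.04 CPM in Control (3.84), so the ID pair differed in opposite directions, and Bcl6 lay lowest of the list at 0.15. Of 9 measured AP-1 and BATF partners 8 were lower in PBM CD8 T cells, 7 of them at least 2-fold, against 18.1% of all genes, with a median of -2.10, and the values ran from -3.75 for Fosl1 to 0.17 for Junb. Among 10 measured paralogs of the members 7 were lower and 3 higher; the nuclear receptors Nr4a1 (-2.40) and Nr4a3 (-3.27) lay on the same side as Nr4a2, while Nfatc2 (-0.19, above 0 with TMM factors) and Nfatc3 (0.26) lay within 2-fold.

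All 10 measured members of a list of other effector regulators were lower in PBM CD8 T cells, 8 of them at least 2-fold (18.1% of all genes), from -4.95 for Zeb2, a repressor that works downstream of T-bet, to -0.38 for Runx3. Of 18 genes known as targets or readouts of these factors all were lower in PBM CD8 T cells, 15 at least 2-fold (18.1% of all genes), with a median of -4.65. They ran from -7.02 for Rgs16, a regulator of G protein signals at 1.05 CPM in PBM and 137 CPM in Control, to -0.65 for the chemokine receptor Cxcr3. Ifng, Pdcd1, Ccl3, Ccl4, Rgs16 and Lag3 of this list are among the 10 leading genes of the Ifng-led cluster. That cluster held 94.3% of Control and 0.35% of PBM CD8 T cells. The direction of these genes is thus not separate from that make-up, and the list was chosen with earlier results of these data known. In NK-like cells the same target list was mixed, with 11 lower, 6 of them at least 2-fold (9.76% of all genes), and 7 higher, 2 of them at least 2-fold (7.42% of all genes): the chemokine Ccl3 stood at 206 CPM in PBM and 53.0 CPM in Control (1.96), and the inhibitory receptor gene Lag3, with 1 PBM UMI, lay lowest (-3.92). There Zeb2 was higher in PBM, at 111 CPM in PBM and 45.5 CPM in Control (1.29), the same direction as Tbx21 in that class, and Nr4a1 (0.95) and Nr4a3 (0.89) were higher as Nr4a2 was.

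**Figure D5:**
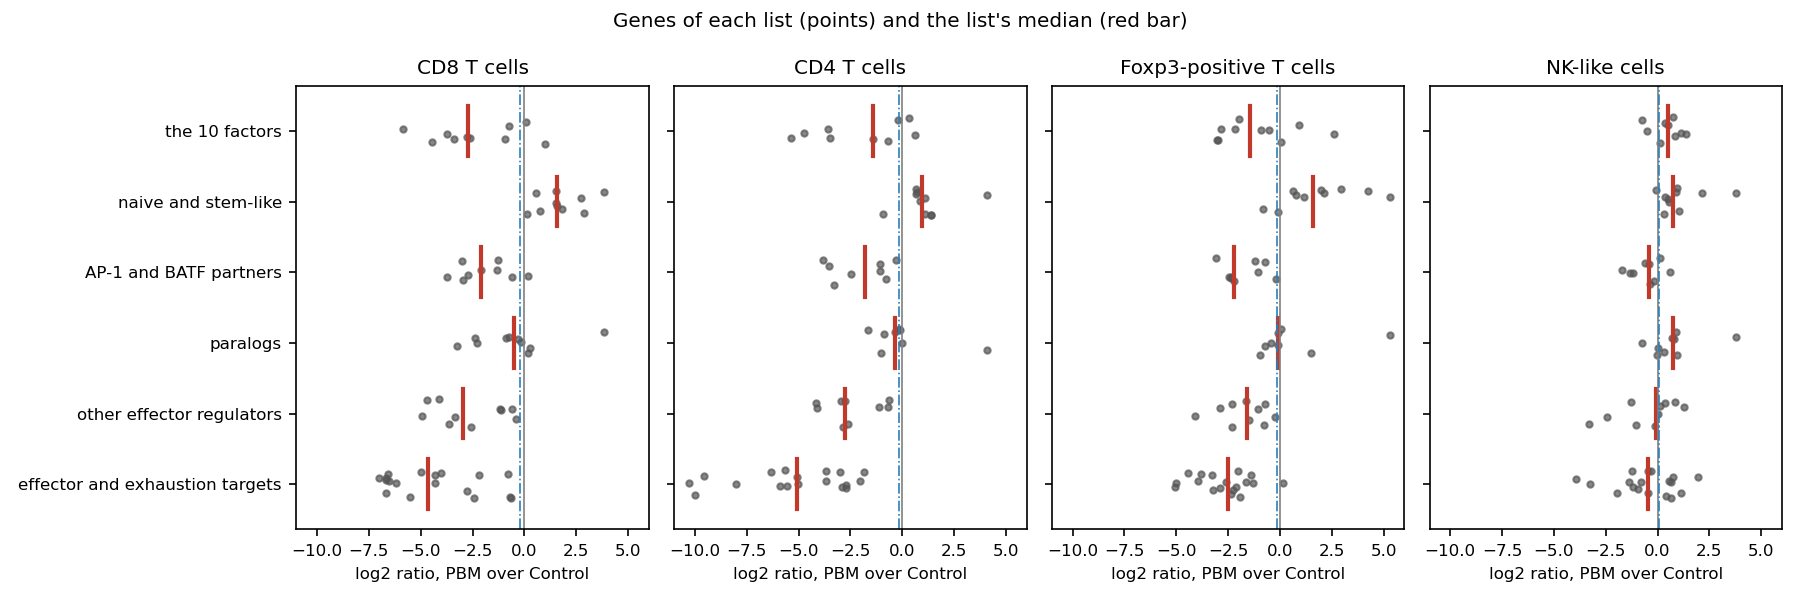
Log2 ratios, PBM over Control (horizontal axis), of the genes of each list in the 4 cell classes, 1 point a gene, with a red bar at each list's median and the median of all genes of the class as a dash-dot line. In CD8 T cells the naive and stem-like regulators lie to the right of 0 and the targets, with a median of -4.65, to the left.

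Over the 8 combinations of class and library, log2 levels with 10 CPM added were compared between genes as a description, with the points sharing libraries and depth. Within the set, Id2 and Bhlhe40 were most alike (Pearson r = 0.97), followed by Id2 and Tbx21 (0.93), and Batf and Prdm1 reached 0.80, whereas Tox and Id2 ran opposite (-0.69). Among 9800 genes the pattern most like that of Batf was Ube2l6 (0.996), then Tnfrsf4 and Tap1. The nearest gene was Samd3 for Eomes (0.99), Samsn1 for Prdm1 (0.99), Fcgr3 for Id2 (0.99), Plek for Tbx21 (0.98), St3gal4 for Bhlhe40 (0.98), Prkrip1 for Nr4a2 (0.97), Borcs6 for Nfatc1 (0.97), Pttg1 for Irf4 (0.97) and Hp1bp3 for Tox (0.96).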

How the data were processed

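The authors deposited UMI counts for each gene symbol and barcode, raw per the file headers and values. Per the submitters' processing notes Cell Ranger 7.2.0 and mm10 were used, while the file headers name PISA 0.12. Per the labels, libraries came from a 10x 3′ kit of version 3.1.

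Cells needed 500 UMIs, 200 genes and at most 10% mitochondrial UMIs; Scrublet doublets (899 in PBM, 128 in Control) were removed. Cells were clustered (scanpy 1.11.5, igraph 0.11.9) on 2000 variable genes without the members, 30 components, 15 neighbours and Leiden resolution 1.0, and clusters were named by markers. In T-like clusters, Foxp3-positive T cells had a Foxp3 UMI, CD8 T cells a Cd8a or Cd8b1 UMI without Cd4 or Foxp3, and CD4 T cells a Cd4 UMI without Cd8a, Cd8b1 or Foxp3. Free RNA was estimated per class as the median level of markers of absent cell types relative to the library, 18.8% in PBM and 11.8% in Control CD8 T cells. A level of 0 was set to 3 counts for ratios. The code for the ratios and intervals was checked on simulated counts with known ratios.

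All 10 members are named, with the extreme genes of each list and the nearest genes by correlation; genes named beyond these were chosen after their values were seen. Members and lists were chosen with earlier results of these data known. Promoter windows were searched for 7 of 10 members, without Tox, Bhlhe40 and Nfatc1. The search skipped any member's entry on a certain chromosome, which the background windows kept, so the motif counts do not cover the whole set. A member left out of the search thus need not lack an entry. Alternatives changed clustering, gates, doublets, depth, scaling (edgeR 4.0.16), free RNA and minima. For ratios in thinned cells the T cell gates were applied again to the thinned counts, while shares kept the original classes.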

Additional observations from a re-analysis of the deposited data

Results flagged for a closer look

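Tbx21, Nr4a2 and Nfatc1 differed in direction between cell classes, with a log2 ratio, PBM over Control, wholly below 0 in a T class and wholly above 0 in NK-like cells. The difference between classes was not tested, since each value comes from 1 library per group. The T class ratio minus the NK-like ratio of Tbx21 was -3.46 for CD8 T cells, -5.56 for CD4 T cells and -3.85 for Foxp3-positive T cells. For Nr4a2 it was -5.61 for CD8 T cells and -3.31 for Foxp3-positive T cells, and for Nfatc1 it was -1.43 for CD8 T cells and -1.18 for CD4 T cells. Without the Ifng-led cluster the T class ratios of Nr4a2 were -0.03 in CD8 T and -0.13 in Foxp3-positive T cells, and that of Nfatc1 was -0.24 in CD8 T and -0.35 in CD4 T cells.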

How the results depend on the processing

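Counts of members at least 2-fold apart and medians were recomputed under each alternative. Higher members in CD8 T cells numbered 0, not 1, at Leiden resolution 0.5, with doublets kept, with unnamed T clusters added, thinned to 1000 UMIs, without high-UMI cells, without the Ifng-led cluster and with the interval wholly past 2-fold; the cause was not tested. Lower members in CD4 T cells numbered 2 after thinning and 2 with a minimum of 100 UMIs, which measures fewer genes, in place of 5, and higher ones 1 after thinning and 1 without high-UMI cells, in place of 0. Higher members in Foxp3-positive T cells numbered 0 after thinning, which left few UMIs of Eomes, 0 with 100 UMIs and 2 with TMM, in place of 1. In NK-like cells lower members numbered 1 with UMI gates and 1 without Cd3 UMIs, in place of 0, and higher ones 1 after thinning, 1 without Cd3 UMIs, 0 without high-UMI cells and 0 with the interval wholly past 2-fold, in place of 2.

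The members' median without the Ifng-led cluster, an alternative chosen after seeing the data, was -0.43 in CD8 T cells and -0.76 in Foxp3-positive T cells. In CD4 T cells it was -2.01 with unnamed clusters added, -2.25 without high-UMI cells and -2.44 with a minimum of 1 UMI. Among values past 2-fold the direction turned for Tox in NK-like cells without Cd3 UMIs (-0.15) and for Nr4a2 by Pdcd1 in thinned Control CD8 T cells (-0.13). Among smaller ratios whose interval leaves out 0, it turned for Batf in CD8 T cells without the Ifng-led cluster (0.03) and for Tox in thinned Foxp3-positive T cells (-0.09). In thinned CD8 T cells split by Tcf7 it turned for Id2 in PBM (0.02) and for Bhlhe40 in Control (0.12). Thinned Foxp3-positive T cells are fewer, 176 in PBM and 284 in Control, as the gate was applied again. Of the members' ratios under the alternatives, 312 kept their direction and their side of 2-fold or moved by less than counting error, and 77 moved further. Within the shared Foxp3-led cluster, which is not among these alternatives, the Prdm1 ratio was -0.93, short of 2-fold. Bhlhe40, Id2, Tbx21 and Prdm1 stayed at least 2-fold lower in CD8 T and Foxp3-positive T cells under each alternative run. In CD4 T cells their ratios stayed below -1 as well, but thinned cells hold too few UMIs of Bhlhe40, Tbx21 and Prdm1 to measure them. UMI gates without clusters were not run for the T classes, nor a gate of 2 UMIs for CD4 T cells, since under 50 cells were left. No paired analysis was possible because each group holds 1 library. Depth limits Irf4 in NK-like cells, Eomes in CD4 T cells and Nr4a2 in CD4 T cells most.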
